A study of Mus musculus with 12 samples.

Results

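The messages described here encode the respiratory chain and ATP synthase of the mitochondrial inner membrane, in mouse embryonic fibroblasts given inhibitors of the kinase mTOR. Members were chosen by name alone: protein-coding genes whose GENCODE M21 symbols belong to the Nduf, Sdh, Uqcr, Cox4 to Cox8, Cycs and Atp5 families, together with the mitochondrially encoded mt-Nd, mt-Co, mt-Cytb and mt-Atp genes. This gave 98 members among the 49315 genes of the count tables. Of these, 85 are nuclear genes, with 37 in complex I, 4 in complex II, 8 in complex III, 1 for cytochrome c, 18 in complex IV and 17 in complex V, and 13 are encoded in mitochondrial DNA. Complexes were assigned by gene name, which counts Ndufa4 and Ndufa4l2 in complex I and not in complex IV. The cells were treated for 24 h with rapamycin at 20 ng/ml, with Torin1 at 250 nM, with RapaLink-1 at 10 nM, or with the solvent DMSO, and each of the 4 groups had 3 RNA sequencing libraries. Rapamycin inhibits mTOR allosterically by way of FKBP12, Torin1 competes with ATP at the kinase site, and RapaLink-1 joins rapamycin to an ATP-site inhibitor through a linker. Each compound was used at a single dose and the doses differ, so a comparison between compounds is a comparison of these treatments as given. The labels name neither the strain nor the genotype of the fibroblasts, and do not tell if replicate libraries are independent cultures. The p-values therefore reflect only how far these libraries spread, which may be technical.

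Complexes I and II pass electrons from NADH and succinate to ubiquinone, complex III passes them to cytochrome c, and complex IV passes them to oxygen, while complex V uses the proton gradient that complexes I, III and IV build to make ATP. Most subunits are encoded in the nucleus and imported, and a small set of hydrophobic core subunits is transcribed from mitochondrial DNA as long polycistronic RNAs, so that a working complex needs products of both genomes. mTOR complex 1 is known to act on this system at several levels, through the coactivator PGC-1α with the factor YY1 and through translation of mitochondrial messages by way of 4E-BPs.

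Total counts ran from 30075900 to 39423700 per library (rounded), and 15917 genes had enough reads to be tested. Fibroblast markers summed to between 18997 and 22499 CPM (counts scaled to the library total) in the 12 libraries, whereas the markers of macrophages, endothelium, epithelium and muscle summed to at most 4.41, 2.93, 1.55 and 1.18 CPM and those of neural cells to between 253 and 344 CPM. Values are levels relative to all RNA in a library, so a lower amount per cell and fewer cells with the message cannot be told apart, and RNA per cell was not measured. Scaling factors (TMM) averaged 1.02 in rapamycin, 0.992 in Torin1, 1.02 in RapaLink-1 and 0.966 in DMSO libraries. Of the members, 77 of the 85 nuclear and all 13 mitochondrially encoded messages passed the filter on low counts. Over 10% of exonic bases or of 50-base words are shared with other genes for 22 of the 85 nuclear and 8 of the 13 mitochondrially encoded members, which is given beside those named.

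The nuclear and the mitochondrial messages of the chain moved apart. All nuclear members together took 0.940% ± 0.0136 of the counts with rapamycin, 0.840% ± 0.00391 with Torin1 and 0.821% ± 0.000684 with RapaLink-1, against 1.02% ± 0.00530 with DMSO (SD, n = 3 each). The mitochondrially encoded messages together took 1.29% ± 0.0125 with rapamycin, 1.37% ± 0.0153 with Torin1 and 1.20% ± 0.00776 with RapaLink-1, against 1.08% ± 0.0167 with DMSO. No treated library overlapped a DMSO library in either share. Both shares are of raw counts and are not TMM-scaled. The TMM factor was lowest in DMSO libraries (0.966), so with that scaling the nuclear falls would be larger and the mitochondrial rises smaller.

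Gene by gene, rapamycin lowered 45 of the 77 nuclear members tested and raised 8 against DMSO, with a median log2 fold change of -0.10, by edgeR's quasi-likelihood test at an adjusted p under 0.05. Over all genes tested, 59.7% were called in that comparison, 32.2% lower and 27.5% higher, with a median of 0.00. Torin1 lowered 61 members and raised 8, with a median of -0.31, where 78% of all genes were called, 38.3% lower and 39.8% higher, with a median of 0.04. RapaLink-1 lowered 68 and raised 6, with a median of -0.40, where 76.7% of all genes were called, 37.9% lower and 38.7% higher, with a median of 0.03. The shifts were mostly small, since a 2-fold fall was reached by 0 members with rapamycin, 1 with Torin1 and 3 with RapaLink-1. Among the calls, 40 nuclear members were lower with every compound and 3 were higher with every compound, and the 3 comparisons share their DMSO libraries. Upper-quartile scaling gave 19 higher and 35 lower calls for rapamycin, 15 higher and 51 lower for Torin1, and 11 higher and 57 lower for RapaLink-1, and it moved the median of all genes by 0.0627, 0.126 and 0.137 on the log2 scale. That scaling moves all genes alike, and the nuclear medians became -0.04 with rapamycin, -0.18 with Torin1 and -0.26 with RapaLink-1, against all-gene medians of 0.07, 0.16 and 0.16. A fit of only genes averaging at least 5 CPM kept all 77 nuclear members. There the rapamycin median of the members was -0.05, with 19 higher and 35 lower. Of the 10484 genes in that fit, 3967 were higher and 3854 lower with rapamycin, with a median of 0.006. With the gene-length trend removed, the rapamycin median of the members was -0.16, against -0.01 for all genes.

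**Figure D1:**
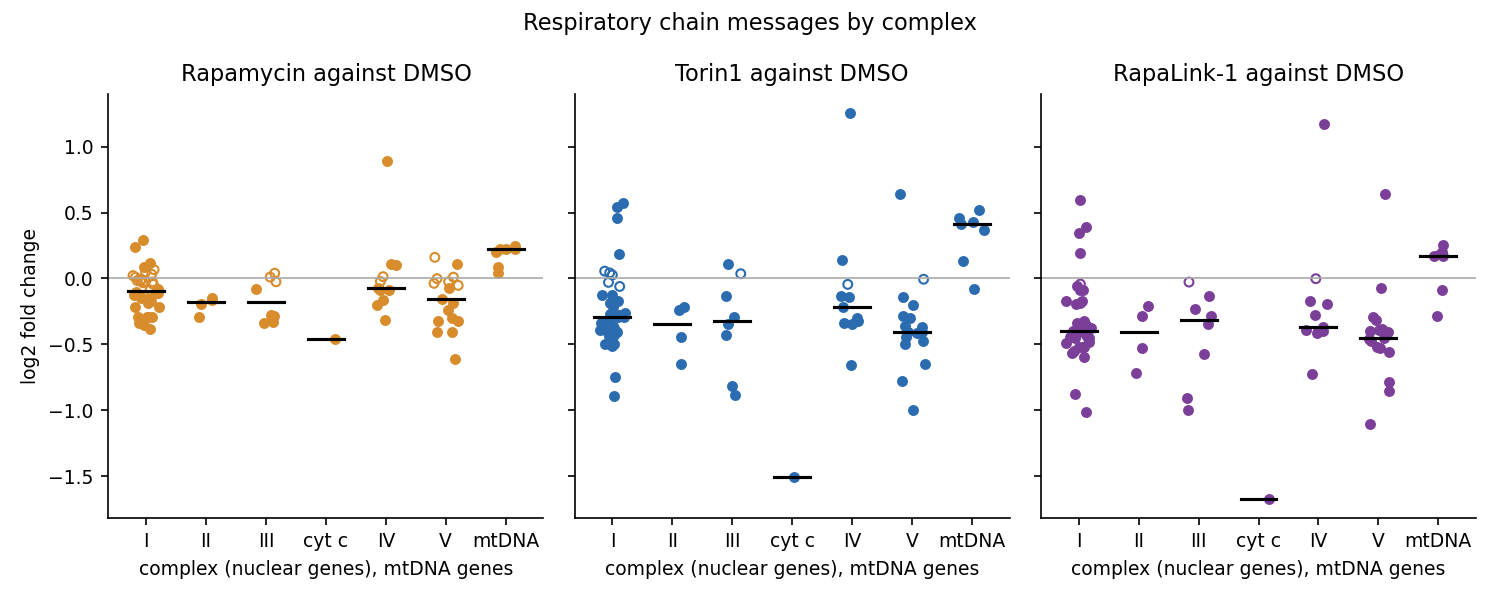
Log2 fold change of each member tested against DMSO, for rapamycin, Torin1 and RapaLink-1 from left to right. Nuclear members are grouped by complex, the column mtDNA holds the 7 well-covered mitochondrially encoded messages, filled points passed edgeR's test, open points did not, and bars are medians; most nuclear points lie below 0 in the Torin1 and RapaLink-1 panels and the mtDNA medians lie above 0 in all 3.

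The complexes differed in how far their messages moved. Shares of counts are again not TMM-scaled. Nuclear complex V messages, which include Atp5b, took 0.402% ± 0.00573 of counts with rapamycin, 0.353% ± 0.00220 with Torin1 and 0.348% ± 0.000515 with RapaLink-1, against 0.470% ± 0.00333 with DMSO. Complex I messages took 0.242% ± 0.00309 with rapamycin, 0.225% ± 0.00186 with Torin1 and 0.219% ± 0.000687 with RapaLink-1, against 0.247% ± 0.000952 with DMSO. Nuclear complex IV messages took 0.160% ± 0.00383 with rapamycin, 0.146% ± 0.000525 with Torin1 and 0.139% ± 0.000940 with RapaLink-1, against 0.150% ± 0.000658 with DMSO. In that share, which is not TMM-scaled, every rapamycin library (lowest 0.158%) lay above every DMSO library (highest 0.151%). In TMM-scaled CPM, the 11 nuclear complex IV messages tested summed to 1562 ± 40.4 CPM with rapamycin, 1471 ± 5.53 CPM with Torin1 and 1367 ± 8.46 CPM with RapaLink-1, against 1551 ± 8.88 CPM with DMSO. On this measure the rapamycin libraries overlapped those of DMSO. Without Cox7a2l, which rose with every compound, the sums were 1449.5 ± 37.2 CPM with rapamycin, 1326 ± 1.55 CPM with Torin1 and 1230.2 ± 8.11 CPM with RapaLink-1, against 1490.1 ± 9.10 CPM with DMSO. There too the rapamycin libraries (highest 1492 CPM) overlapped those of DMSO (lowest 1480 CPM).

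With Torin1 and RapaLink-1 the largest fall against DMSO among all members was in Cycs, and with rapamycin only Atp5g1 fell further among the members tested. Cycs is the gene of somatic cytochrome c, which carries electrons from complex III to complex IV and, once released into the cytosol, triggers caspase activation. Cycs (chromosome 6, 50562563 to 50566538, minus strand, GRCm38 as in the count tables) had 96.5, 96.8 and 96.2 CPM with rapamycin, 47.1, 45.7 and 46.9 CPM with Torin1 and 42.7, 39.3 and 43.0 CPM with RapaLink-1, against 135, 133 and 130 CPM with DMSO. The 4 groups did not overlap in any pair. The log2 fold changes against DMSO were -0.46 ± 0.025 with rapamycin, -1.51 ± 0.028 with Torin1 and -1.67 ± 0.029 with RapaLink-1 (SE), with edgeR adjusted p of 1.18e-39, 1.10e-102 and 7.47e-108. Torin1 left Cycs at 0.482 times its level with rapamycin, and RapaLink-1 left it a further 0.16 ± 0.034 lower than Torin1 on the log2 scale. Of the 50-base words of Cycs transcripts, 26.1% also occur in transcripts of other genes, mostly the retrogene Gm10053, so part of this count is uncertain. The promoter of Cycs is shown because it carries a match to the motif of nuclear respiratory factor 1, the factor named for its sites in cytochrome c and other respiratory genes. It spans 250 bases before to 50 after the start in RefSeq GRCm38.p6 (chr6:50566520-50566819, minus strand, printed 5′ to 3′), and capitals mark, in order, matches to CREB (TGACGTCA), NRF1 (GCATGCGC) and SP1 (GGGCGG) motifs on either strand.
Cycs promoter: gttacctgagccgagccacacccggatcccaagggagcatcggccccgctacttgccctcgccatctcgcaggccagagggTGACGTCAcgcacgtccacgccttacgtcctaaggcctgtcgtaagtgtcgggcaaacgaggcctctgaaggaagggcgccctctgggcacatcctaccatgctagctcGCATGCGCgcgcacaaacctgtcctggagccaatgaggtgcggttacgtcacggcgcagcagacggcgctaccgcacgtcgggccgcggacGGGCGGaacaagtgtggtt

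By gene name, complex I, the NADH dehydrogenase, had 37 nuclear members, of which 36 were tested, Ndufa4 among them. Rapamycin lowered 19 and raised 4, Torin1 lowered 27 and raised 4, and RapaLink-1 lowered 31 and raised 4. Among all genes the lower calls were 32.2%, 38.3% and 37.9% in that order, and the higher calls 27.5%, 39.8% and 38.7%. Without Ndufa4, 28 accessory subunits were tested. They had 14, 21 and 25 lower calls and 4, 3 and 3 higher calls with rapamycin, Torin1 and RapaLink-1. The largest fall was in the core subunit Ndufs8, an iron-sulfur protein, with 59.3, 57.3 and 57.2 CPM with rapamycin, 41.8, 40.8 and 40.0 CPM with Torin1 and 36.2, 37.8 and 38.2 CPM with RapaLink-1, against 75.4, 73.8 and 78.0 CPM with DMSO. No groups overlapped, and the log2 fold changes of Ndufs8 were -0.39 ± 0.031, -0.89 ± 0.033 and -1.02 ± 0.033 in the order just given. The accessory subunit Ndufa5 fell by 0.29, 0.75 and 0.88 on the log2 scale with rapamycin, Torin1 and RapaLink-1. The core subunit Ndufs1, the largest iron-sulfur protein of the complex, fell by 0.29, 0.31 and 0.32, close to the same amount with each compound.

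A few accessory subunits rose instead. Ndufa6, an accessory subunit of the LYR-motif family, had 44.1, 42.8 and 43.0 CPM with rapamycin, 65.4, 68.0 and 69.8 CPM with Torin1 and 62.2, 60.3 and 60.1 CPM with RapaLink-1, against 47.0, 45.2 and 47.3 CPM with DMSO. It was the only nuclear member called lower with rapamycin (-0.10 ± 0.035, but -0.04 and not called under upper-quartile scaling) and higher with Torin1 (0.54 ± 0.032) and RapaLink-1 (0.39 ± 0.033). The accessory subunits Ndufa7 and Ndufv3 were higher with every compound, Ndufa7 by 0.30, 0.46 and 0.35 and Ndufv3 by 0.12, 0.18 and 0.19 on the log2 scale with rapamycin, Torin1 and RapaLink-1, although the rapamycin call of Ndufv3 was lost without rapamycin replicate 1 (0.10).

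Complex II, the succinate dehydrogenase, is encoded wholly in the nucleus, and its 4 messages were lower with every compound. Lower calls made up 32.2% of all genes with rapamycin, 38.3% with Torin1 and 37.9% with RapaLink-1. Sdha, the flavoprotein that oxidizes succinate, had 225, 222 and 221 CPM with rapamycin, 216, 219 and 226 CPM with Torin1 and 222, 225 and 217 CPM with RapaLink-1, against 258, 253 and 256 CPM with DMSO. The treated libraries of Sdha overlapped each other and all lay below DMSO, with log2 fold changes of -0.20, -0.21 and -0.21 (SE 0.019 each). Sdhb, the iron-sulfur subunit, fell by 0.17 ± 0.023 with rapamycin, 0.44 ± 0.024 with Torin1 and 0.53 ± 0.024 with RapaLink-1. The membrane anchor Sdhd fell further, by 0.29 ± 0.026, 0.65 ± 0.027 and 0.72 ± 0.027, and the other anchor Sdhc less, by 0.15, 0.24 and 0.28. Set directly against rapamycin, Torin1 lowered Sdhd by 0.35 ± 0.027 and Sdhb by 0.28 ± 0.024, whereas for Sdha the difference was -0.02 with a 95% interval of -0.05 to 0.02. Under upper-quartile scaling that difference in Sdha became 0.05 and passed the test as higher with Torin1.

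In complex III, the cytochrome bc1 complex, rapamycin lowered 5 of the 8 members and raised 0, Torin1 lowered 6 and raised 1, and RapaLink-1 lowered 7 and raised 0. The shares over all genes were 32.2%, 38.3% and 37.9% lower and 27.5%, 39.8% and 38.7% higher. The core proteins Uqcrc1 and Uqcrc2 and the Rieske iron-sulfur protein Uqcrfs1 were lower with every compound. Uqcrfs1 fell by 0.33 ± 0.027 with rapamycin, 0.29 ± 0.027 with Torin1 and 0.28 ± 0.027 with RapaLink-1. Uqcrc2 fell by 0.34, 0.13 and 0.13, although 19.7% of its exonic bases lie under the antisense gene Pdzd9 and its RapaLink-1 value turned to 0.0044 under upper-quartile scaling. The small subunit Uqcrq had 79.5, 76.3 and 72.0 CPM with rapamycin, 43.2, 41.5 and 45.1 CPM with Torin1 and 40.6, 40.3 and 39.4 CPM with RapaLink-1, against 78.7, 78.9 and 82.4 CPM with DMSO. Rapamycin libraries of Uqcrq overlapped DMSO libraries (-0.08 ± 0.029, a call that was lost at -0.06 without DMSO replicate 3 and at -0.04 without rapamycin replicate 3), while those of Torin1 and RapaLink-1 lay far below and fell by 0.89 ± 0.032 and 1.00 ± 0.033. Uqcrb, another small subunit, fell by 0.28, 0.81 and 0.91 with rapamycin, Torin1 and RapaLink-1, with 25.4% of its 50-base words shared with other transcripts. Uqcr10 was at 0.04 with rapamycin and with Torin1, neither called, and fell by 0.23 ± 0.033 with RapaLink-1. Uqcrh, the hinge protein, was the member called higher with Torin1 (0.11 ± 0.026, but 0.04 and not called with the gene-length trend removed), and it was at -0.03 with rapamycin and with RapaLink-1, neither called, the RapaLink-1 value turning to 0.11 under upper-quartile scaling.

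Complex IV, cytochrome c oxidase, held the largest rise among the members. Cox7a2l, also called SCAFI, belongs to the Cox7a family and links complex III to complex IV in respiratory supercomplexes. It lies on chromosome 17 (83501919 to 83514333, minus strand) and had 117, 111 and 111 CPM with rapamycin, 147, 149 and 141 CPM with Torin1 and 137, 136 and 138 CPM with RapaLink-1, against 60.8, 61.1 and 60.6 CPM with DMSO. The 4 groups did not overlap. Cox7a2l rose by 0.89 ± 0.027, 1.26 ± 0.026 and 1.17 ± 0.026 on the log2 scale, folds of 1.86, 2.39 and 2.25, with edgeR adjusted p of 9.89e-73, 2.82e-97 and 4.05e-92. Of its 50-base words, 13.8% are shared, mainly with the processed pseudogene Gm6969, which averaged 39.1 CPM with rapamycin, 48.2 CPM with Torin1 and 47.7 CPM with RapaLink-1, against 20.9 CPM with DMSO, so reads of both cannot be fully told apart. Its promoter is shown beside that of Cycs because with Torin1 and RapaLink-1 these were the members that moved furthest in opposite directions (chr17:83514284-83514583, minus strand, RefSeq GRCm38.p6), and its capitals mark 2 SP1 motifs (GGGCGG), the only motifs searched for that it holds.
Cox7a2l promoter: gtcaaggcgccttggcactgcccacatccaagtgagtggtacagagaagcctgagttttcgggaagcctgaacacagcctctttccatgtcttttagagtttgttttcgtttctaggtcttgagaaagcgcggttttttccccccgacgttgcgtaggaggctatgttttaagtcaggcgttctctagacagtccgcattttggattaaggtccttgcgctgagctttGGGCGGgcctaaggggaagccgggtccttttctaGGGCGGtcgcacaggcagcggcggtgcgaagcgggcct

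Of the 11 nuclear complex IV members tested, 6 were lower and 3 higher with rapamycin, 8 and 2 with Torin1, and 9 and 1 with RapaLink-1. In the same comparisons, 32.2%, 38.3% and 37.9% of all genes were lower and 27.5%, 39.8% and 38.7% higher. Cox5a, a matrix-facing subunit, fell by 0.32, 0.66 and 0.72 with rapamycin, Torin1 and RapaLink-1, and the antisense gene Gm26631 covers 12.8% of its exonic bases. The small subunits Cox6a1 and Cox6c went in opposite directions between compounds. Cox6a1 had 228, 213 and 219 CPM with rapamycin, 163, 166 and 160 CPM with Torin1 and 158, 157 and 149 CPM with RapaLink-1, against 201, 204 and 207 CPM with DMSO. Its rapamycin libraries all lay above DMSO (0.11 ± 0.020) and the others all below, by 0.32 ± 0.021 with Torin1 and 0.40 ± 0.021 with RapaLink-1. The same pattern was called for Cox6c, for Atp5e, the epsilon subunit of ATP synthase, and for the complex I accessory subunits Ndufa1 and Ndufa2, making 5 nuclear members higher with rapamycin and lower with both Torin1 and RapaLink-1. Ndufa1 showed it most, at 0.24 ± 0.046 with rapamycin, -0.26 ± 0.049 with Torin1 and -0.34 ± 0.050 with RapaLink-1. Ndufa2 was least stable, at 0.08 with rapamycin and at -0.02 once the trend with gene length was removed, and the rapamycin call of Ndufa2 was also lost without rapamycin replicate 1 (0.03), DMSO replicate 1 (0.08) or DMSO replicate 2 (0.08).

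Isoforms that are known for particular tissues were near 0 in these fibroblasts. The lung and hypoxia isoform Cox4i2 had between 0 and 4 counts per library, while its general partner Cox4i1 averaged 382 ± 8.72 CPM with rapamycin, 416 ± 6.52 CPM with Torin1 and 378 ± 0.975 CPM with RapaLink-1, against 378 ± 3.17 CPM with DMSO. Cox4i1 rose with Torin1 (0.14 ± 0.017) and was not called with RapaLink-1, where upper-quartile scaling gave 0.14 and a call. The heart and muscle isoforms Cox6a2, Cox7a1 and Cox8b, the testis isoforms Cox6b2, Cox7b2 and Cox8c, and Ndufa4l2, which hypoxia induces, were also too low to test, and Cox7b2, Cox8b and Cox8c had 0 counts in all 12 libraries.

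ATP synthase messages fell broadly. Rapamycin lowered 10 of the 17 members and raised 1, Torin1 lowered 15 and raised 1, and RapaLink-1 lowered 16 and raised 1. Across all genes tested, 32.2%, 38.3% and 37.9% were lower and 27.5%, 39.8% and 38.7% higher. The catalytic beta subunit Atp5b, the nuclear member with the highest CPM per kb in DMSO libraries (409.6), had 1326, 1289 and 1305 CPM with rapamycin, 1233, 1225 and 1223 CPM with Torin1 and 1205, 1204 and 1202 CPM with RapaLink-1, against 1732, 1717 and 1757 CPM with DMSO. All treated libraries lay below all DMSO libraries, by 0.41 ± 0.014, 0.50 ± 0.014 and 0.53 ± 0.014 on the log2 scale. The alpha subunit Atp5a1 fell by nearly the same amounts, 0.40, 0.47 and 0.52, and the e subunit Atp5k, which lies where dimers of the enzyme meet, fell by 0.18, 0.65 and 0.79. The member called higher with Torin1 and RapaLink-1 was Atp5s (0.64 ± 0.083 with each), named coupling factor B, which is not a subunit of the enzyme, and it was a low message at 9.14, 9.13 and 5.87 CPM on average with Torin1, RapaLink-1 and DMSO.

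The c subunit, whose ring turns in the membrane as protons pass, is encoded by 3 nuclear genes that yield the same mature protein, and these genes differed. Atp5g1 had 95.4, 87.9 and 88.7 CPM with rapamycin, 72.6, 66.9 and 68.4 CPM with Torin1 and 65.1, 63.3 and 64.8 CPM with RapaLink-1, against 139, 136 and 140 CPM with DMSO. Atp5g3 averaged 233 ± 3.27 CPM with rapamycin, 170 ± 0.773 CPM with Torin1 and 161 ± 3.11 CPM with RapaLink-1, against 291 ± 3.64 CPM with DMSO. No treated library of these 2 genes overlapped DMSO, and Atp5g1 fell by 0.61 ± 0.025, 1.00 ± 0.027 and 1.10 ± 0.027, and Atp5g3 by 0.32 ± 0.019, 0.78 ± 0.019 and 0.85 ± 0.019 on the log2 scale. Atp5g2 had 122, 122 and 121 CPM with rapamycin, 121, 120 and 123 CPM with Torin1 and 113, 119 and 116 CPM with RapaLink-1, against 123, 122 and 120 CPM with DMSO. Its groups overlapped except for RapaLink-1, which was called 0.07 ± 0.023 lower, and upper-quartile scaling turned Atp5g2 to 0.06, 0.12 and 0.06 with rapamycin, Torin1 and RapaLink-1, each called higher, beside the all-gene medians of 0.07, 0.16 and 0.16 under that scaling. The 3 genes summed to 445 ± 7.55 CPM with rapamycin, 361 ± 4.32 CPM with Torin1 and 341 ± 5.00 CPM with RapaLink-1, against 551 ± 2.93 CPM with DMSO. The part of that sum read from Atp5g2 was 27.4% ± 0.343 with rapamycin, 33.7% ± 0.326 with Torin1 and 33.9% ± 0.453 with RapaLink-1, against 22.1% ± 0.380 with DMSO. For Atp5g2, 36.7% of 50-base words are shared with other transcripts, and for Atp5g1 11.1%.

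**Figure D2:**
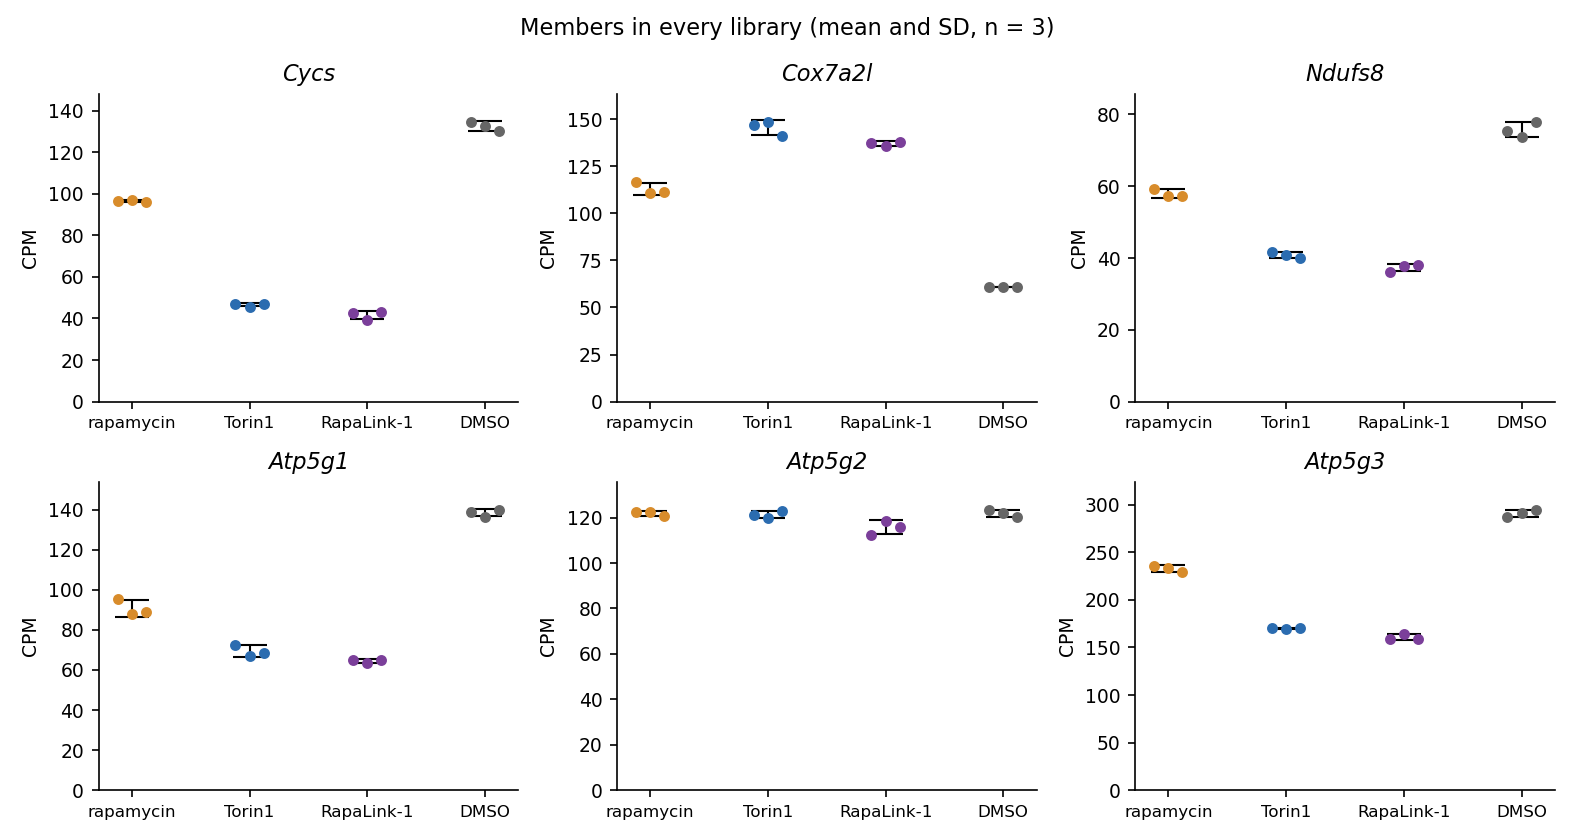
CPM (TMM-scaled) of 6 members in each of the 12 libraries, with the mean and SD of 3 libraries per group, treated groups left of DMSO and each axis starting at 0. Cycs, Ndufs8, Atp5g1 and Atp5g3 step down through rapamycin, Torin1 and RapaLink-1, Cox7a2l lies above DMSO in every treated library, and Atp5g2 stays between 113 and 123 CPM.

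The promoters of the 3 c subunit genes are shown because the genes encode the same mature protein and their messages differed. They are RefSeq GRCm38.p6 windows on the minus strand (Atp5g1 chr11:96075582-96075881, Atp5g2 chr15:102670998-102671297, Atp5g3 chr2:73911277-73911576). Capitals mark an E-box (CACGTG) in Atp5g1 and Atp5g3, overlapping NRF1 matches on both strands and an SP1 match on the opposite strand in Atp5g2, and a match to the ERRα motif (TCAAGGTCA) on the opposite strand in Atp5g3.
Atp5g1 promoter: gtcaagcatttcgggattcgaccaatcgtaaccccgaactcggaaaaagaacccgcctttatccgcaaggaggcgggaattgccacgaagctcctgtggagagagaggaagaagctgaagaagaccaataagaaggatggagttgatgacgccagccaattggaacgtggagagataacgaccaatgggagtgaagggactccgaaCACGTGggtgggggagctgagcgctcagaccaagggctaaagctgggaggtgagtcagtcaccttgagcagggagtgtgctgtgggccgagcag
Atp5g2 promoter: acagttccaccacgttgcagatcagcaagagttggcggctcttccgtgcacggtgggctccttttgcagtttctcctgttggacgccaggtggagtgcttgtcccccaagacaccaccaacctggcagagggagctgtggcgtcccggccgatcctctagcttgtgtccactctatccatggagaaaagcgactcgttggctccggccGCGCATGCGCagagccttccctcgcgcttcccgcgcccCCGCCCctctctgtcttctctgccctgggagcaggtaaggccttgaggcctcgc
Atp5g3 promoter: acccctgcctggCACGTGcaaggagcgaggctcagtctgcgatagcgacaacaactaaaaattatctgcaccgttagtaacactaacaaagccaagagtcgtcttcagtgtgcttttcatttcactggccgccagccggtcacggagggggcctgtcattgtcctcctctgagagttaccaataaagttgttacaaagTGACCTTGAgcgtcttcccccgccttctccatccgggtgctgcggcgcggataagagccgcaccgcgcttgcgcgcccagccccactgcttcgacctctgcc
Across the 63 tested nuclear members with an entry in the promoter table, 11 held the NRF1 motif, or 17.5%, against 3.05% of all 27025 genes in that table. The 27025 genes include genes that were not tested here, so the sets are not matched for expression. The YY1 motif (AAGATGGC) was in 9 members, or 14.3%, against 3.19% of all genes in the table, and the SP1 motif in 39.7%, against 38.2%. The motif of GABP and other ETS factors (CCGGAAGT) was in 7.94%, against 4.31%, the CREB motif in 7.94%, against 2.03%, the ERRα motif in 3.17%, against 0.466%, and the E-box in 7.94%, against 8.09%. The ATF4 motif (TGATGCAA) was in 0 of the 63, against 1.03% of all genes in the table, a share too low for its absence among 63 to be telling. These shares describe letters in a fixed window and not binding.

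Messages from mitochondrial DNA went the other way from most nuclear members. The 7 with good coverage, at least 1000 counts in every library, were all called higher with rapamycin, and the other 6 were not called. Of all genes, 27.5% were called higher and 32.2% lower with rapamycin. The median log2 fold changes of the 7 were 0.22 with rapamycin, 0.41 with Torin1 and 0.17 with RapaLink-1. Of all 13, Torin1 raised 7 and lowered 1 and RapaLink-1 raised 5 and lowered 2, and under upper-quartile scaling these were 9 and 0 with Torin1 and 6 and 1 with RapaLink-1. Without that scaling, 39.8% of all genes were called higher and 38.3% lower with Torin1, and 38.7% and 37.9% with RapaLink-1. The 5 higher calls with RapaLink-1 were thus near the share over all genes. Removing the gene-length trend lowered the median of all 13 to 0.23 with Torin1 and 0.03 with RapaLink-1, against 0.37 and 0.13 without that step. mt-Co1, the catalytic subunit of complex IV, had 4376, 4352 and 4358 CPM with rapamycin, 5002, 4982 and 4932 CPM with Torin1 and 4219, 4167 and 4196 CPM with RapaLink-1, against 3762, 3716 and 3714 CPM with DMSO. No groups overlapped, and the log2 fold changes were 0.23 ± 0.013, 0.41 ± 0.013 and 0.17 ± 0.013. mt-Cytb, the complex III subunit that holds the haems b, averaged 2185 ± 14.3 CPM with rapamycin, 2580 ± 31.5 CPM with Torin1 and 2133 ± 22.2 CPM with RapaLink-1, against 1875 ± 17.2 CPM with DMSO. Of the proton-pumping complex I subunits, mt-Nd4 was 0.25, 0.52 and 0.25 higher on the log2 scale with rapamycin, Torin1 and RapaLink-1, and mt-Nd5 was 0.20, 0.37 and 0.17 higher. mt-Nd6, the only member transcribed from the light strand, was 0.22 ± 0.033, 0.43 ± 0.033 and 0.20 ± 0.034 higher, with the strand setting of the counting not given in the sources used here.

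The pair of messages nearest the start of the heavy-strand transcript rose less or fell. mt-Nd1 had 2594, 2585 and 2506 CPM with rapamycin, 2371, 2366 and 2303 CPM with Torin1 and 2052, 2030 and 2048 CPM with RapaLink-1, against 2543, 2491 and 2424 CPM with DMSO. Its rapamycin libraries overlapped DMSO (0.04 ± 0.014, called higher, but -0.03 once the gene-length trend was removed and 0.02, not called, without DMSO replicate 3), RapaLink-1 libraries lay below all others (-0.28 ± 0.014), and Torin1 was called lower (-0.08 ± 0.014) but 0.04 higher under upper-quartile scaling. mt-Nd2 had 1171, 1170 and 1130 CPM with rapamycin, 1206, 1212 and 1160 CPM with Torin1 and 1037, 1029 and 1021 CPM with RapaLink-1, against 1126, 1096 and 1049 CPM with DMSO. mt-Nd2 was 0.09 and 0.13 higher with rapamycin and Torin1 and 0.08 lower with RapaLink-1, the last of which turned to 0.05 under upper-quartile scaling. Within RapaLink-1 libraries, mt-Nd1 and mt-Nd2 were therefore the 2 well-covered messages below DMSO and the other 5 were above it.

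**Figure D3:**
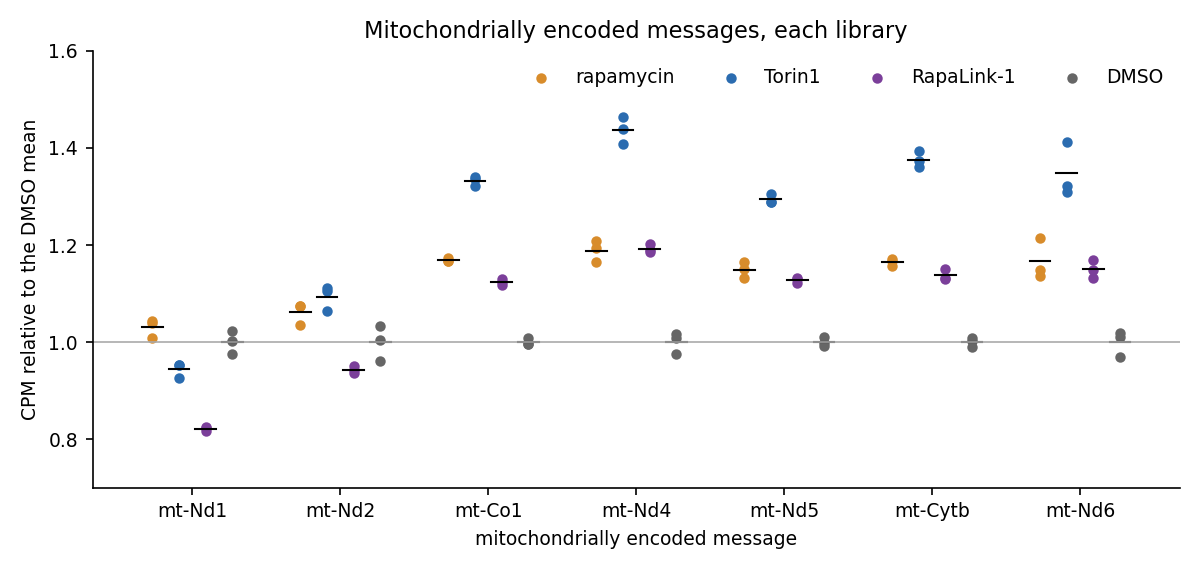
CPM of the 7 well-covered mitochondrially encoded messages in every library, divided by the mean of the DMSO libraries (ratio axis from 0.7 to 1.6, not from 0), with treated groups left of DMSO and bars at group means. The 5 messages from mt-Co1 to mt-Nd6 lie above 1 in every treated library and highest with Torin1, while mt-Nd1 lies below 1 with Torin1 and RapaLink-1.

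The other 6 mitochondrially encoded messages were counted from very few reads. Per kb of transcript, the 7 well-covered messages averaged between 496 CPM (mt-Nd4) and 2793 CPM (mt-Co1) over the 12 libraries, and mt-Co2, mt-Co3, mt-Atp6, mt-Atp8, mt-Nd3 and mt-Nd4l between 0.565 and 1.77 CPM. mt-Co2, which holds the copper centre that takes electrons from cytochrome c, had 20 to 37 reads per library. Of the 50-base words of mt-Co2, mt-Co3, mt-Atp6, mt-Nd3 and mt-Nd4l, between 98.0% and 100% also occur in transcripts of a run of 7 pseudogenes on chromosome 1 (chr1:24611535-24616197), a nuclear copy of mitochondrial DNA, which itself collected 7464 reads in all. mt-Atp8 has 0% of such words in annotated transcripts, and 21.1% of its bases lie within mt-Atp6. The first 120 bases of mt-Co2 and of its copy Gm28661, shown because they make the sharing visible, are the same letter for letter, and the 681 bases that could be compared held 0 differences (GENCODE M21 transcripts, 5′ to 3′, no capitals since no base differs).
mt-Co2: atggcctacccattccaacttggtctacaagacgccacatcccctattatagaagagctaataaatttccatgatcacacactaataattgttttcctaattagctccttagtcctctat
Gm28661: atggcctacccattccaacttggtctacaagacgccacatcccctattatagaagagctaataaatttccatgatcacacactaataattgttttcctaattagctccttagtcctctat
Among these 6, mt-Nd3 was called lower with RapaLink-1 than with rapamycin (-1.13 ± 0.490), from 2, 8 and 4 reads with RapaLink-1 against 11, 9 and 12 with rapamycin, and the call was lost on leaving out any rapamycin library, RapaLink-1 replicate 1 (-0.87) or RapaLink-1 replicate 3 (-1.01). The other call was mt-Co3 with Torin1 against DMSO (0.53 ± 0.203), from 50, 52 and 47 reads with Torin1 against 42, 30 and 35 with DMSO, and the call was lost without DMSO replicate 2 (0.46) or Torin1 replicate 1 (0.44). For mt-Co2, mt-Co3, mt-Atp6, mt-Nd3 and mt-Nd4l, reads of the message and of the nuclear copy can hardly be told apart, and for mt-Atp8 sequence outside annotated transcripts was not compared. mt-Co1 and mt-Nd4 also share 51.1% and 62.2% of their words and still had high counts. How reads with several matches were treated is not given in the sources used here, and its part in these low counts was not tested.

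**Figure D4:**
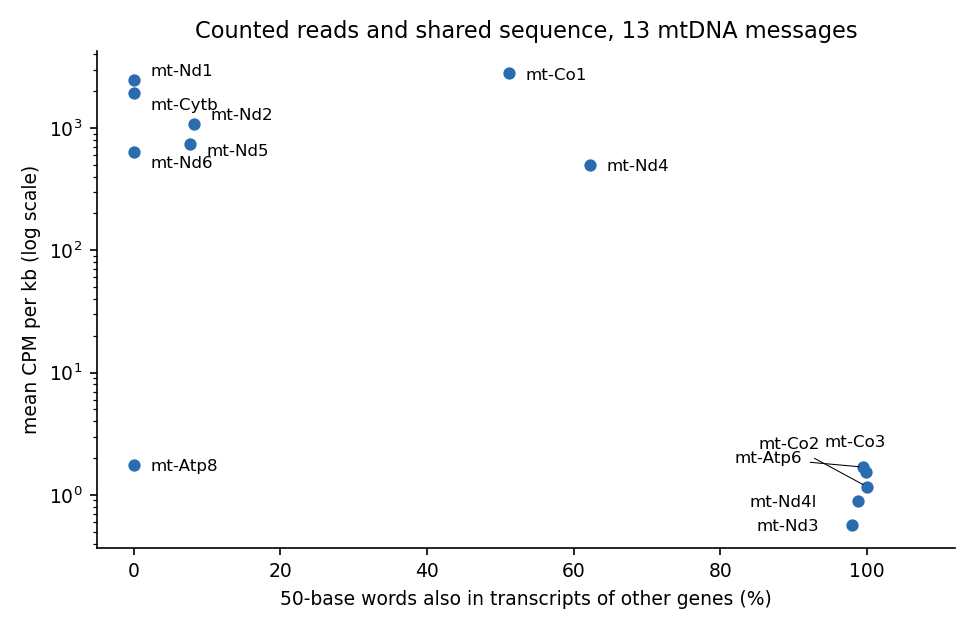
Mean CPM per kb over the 12 libraries (log axis) against the percentage of each message's 50-base words that also occur in transcripts of other genes, for the 13 mitochondrially encoded members. The 5 messages at 98.0% to 100% and mt-Atp8 at 0% lie between 0.565 and 1.77 CPM per kb, far below the 7 others.

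Set directly against each other, the compounds differed in most nuclear members. Torin1 lowered 51 nuclear members and raised 15 against rapamycin, with a median of -0.16, where 67.5% of all genes were called, 33.2% lower and 34.2% higher (22 higher and 41 lower members under upper-quartile scaling). RapaLink-1 lowered 57 and raised 5 against rapamycin, with a median of -0.28, where 65% of all genes were called, 33% lower and 32% higher (17 higher and 51 lower members under upper-quartile scaling). RapaLink-1 lowered 46 nuclear members and raised 0 against Torin1, where 33.2% of all genes were called, 16.4% lower and 16.7% higher. These last differences were small, with a median of -0.08 and a range of -0.27 to 0.02 on the log2 scale, and with the gene-length trend removed 26 were lower and 1 higher. The largest fall of Torin1 against rapamycin was in Cycs (-1.05 ± 0.030), followed by Uqcrq (-0.81 ± 0.033), and the largest rise was in Ndufa6 (0.65 ± 0.033).

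The mitochondrially encoded messages separated Torin1 from RapaLink-1 more than the nuclear ones did. All 7 well-covered messages were lower with RapaLink-1 than with Torin1, with a median of -0.23 and a range of -0.27 to -0.20. Against rapamycin, RapaLink-1 lowered mt-Nd1 by 0.33 ± 0.014 and mt-Nd2 by 0.17 ± 0.020, and it lowered mt-Co1 by 0.06 and mt-Cytb by 0.04, although those last 2 turned to 0.02 and 0.04 under upper-quartile scaling. mt-Nd4 differed between RapaLink-1 and rapamycin by 0.01, with a 95% interval of -0.03 to 0.04.

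**Figure D5:**
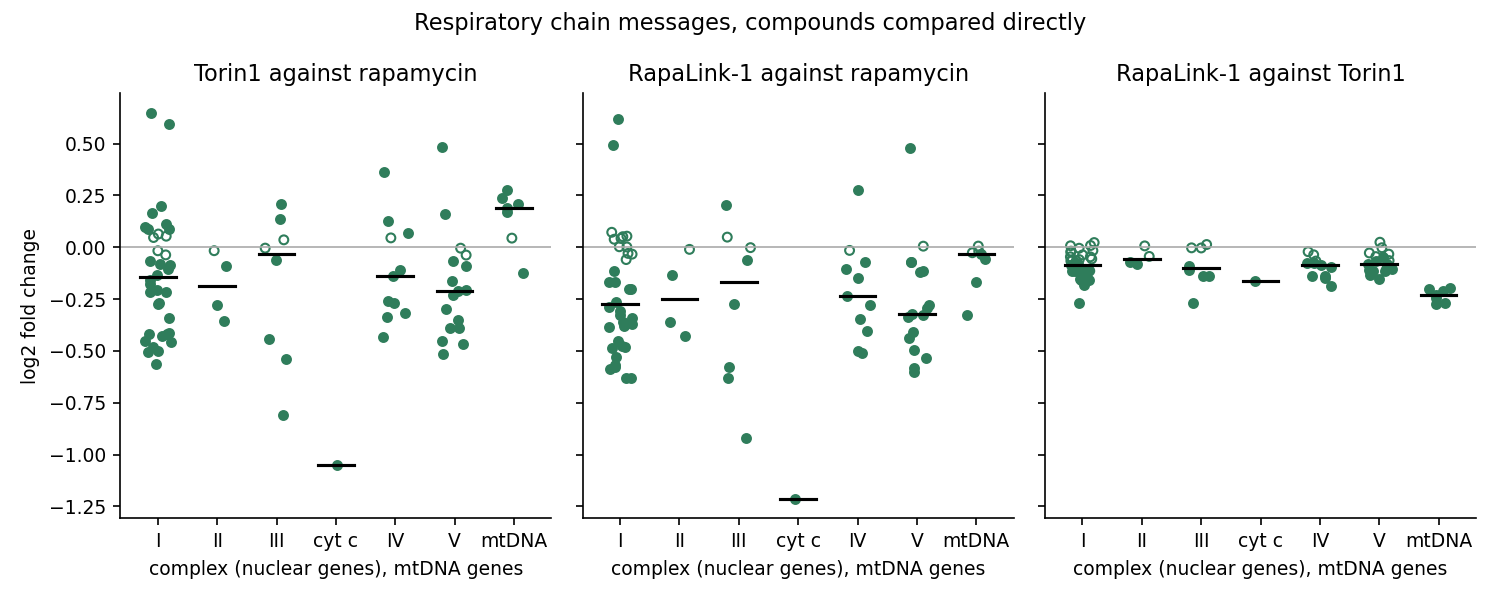
Log2 fold change of each member tested between compounds, for Torin1 against rapamycin, RapaLink-1 against rapamycin and RapaLink-1 against Torin1 from left to right, grouped as in the plot against DMSO, with filled points called, open points not called and bars at medians. Cycs is the lowest point of the first 2 panels, and in the RapaLink-1 against Torin1 panel the 7 mtDNA messages lie between -0.27 and -0.20.

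Several subunits and proteins that bind the complexes lie outside the name rule, and 5 of them could be tested. Cyc1, the cytochrome c1 of complex III, fell by 0.52 ± 0.023 with rapamycin, 0.92 ± 0.024 with Torin1 and 0.99 ± 0.024 with RapaLink-1. Higd1a, a small inner-membrane protein known to bind complex IV, fell by 0.61 ± 0.042, 1.89 ± 0.051 and 1.84 ± 0.050. The 5 had 3, 4 and 5 lower calls and 0 higher calls with rapamycin, Torin1 and RapaLink-1. Of all genes, 32.2%, 38.3% and 37.9% were called lower and 27.5%, 39.8% and 38.7% higher.

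Assembly factors moved in both directions. Of the 17 complex I assembly factors tested, 10 were lower with rapamycin, 10 with Torin1 and 11 with RapaLink-1, and 3 were higher with each. Among all genes, 32.2%, 38.3% and 37.9% were called lower and 27.5%, 39.8% and 38.7% higher. The median log2 fold changes of the 17 were -0.16, -0.24 and -0.32, and Ndufaf4 fell by 0.55, 0.96 and 1.05. In complex III, Uqcc2, which helps the synthesis of cytochrome b, fell by 0.15, 0.97 and 0.93, while its partner Uqcc3 was higher by 0.31, 1.22 and 0.95. Bcs1l, which inserts the Rieske protein, fell by 0.21 with rapamycin and was 0.41 and 0.42 higher with Torin1 and RapaLink-1. In complex IV, Cox10, which farnesylates haem on the way to haem a, fell by 0.55, 1.05 and 0.99, Cmc2 fell by 0.17, 1.11 and 1.06, and Cmc1 was 0.19, 0.69 and 0.60 higher. Tmem70, which assists assembly of the c ring, separated the compounds, with a fall of 0.28 with rapamycin, a rise of 0.27 with Torin1 and a fall of 0.30 with RapaLink-1.

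Among factors that act on mitochondrial DNA and its RNA, 31 were tested, and 20 were lower with rapamycin, 21 with Torin1 and 21 with RapaLink-1, with 1, 8 and 5 higher. Medians of the 31 were -0.22, -0.25 and -0.28 on the log2 scale. In the same comparisons 32.2%, 38.3% and 37.9% of all genes were called lower and 27.5%, 39.8% and 38.7% higher. Elac2, which trims the 3′ ends of mitochondrial tRNAs out of the long transcripts, fell by 0.67 ± 0.033, 0.98 ± 0.035 and 1.09 ± 0.035. Tbrg4, a FASTK family protein, fell by 0.48, 0.67 and 0.68. Lrpprc, which stabilizes mitochondrial messages, had an average of 151 CPM with rapamycin, 203 CPM with Torin1 and 204 CPM with RapaLink-1, against 212 CPM with DMSO, a fall of 0.48 ± 0.020 with rapamycin, while its small falls of 0.06 with the other compounds turned to 0.06 and 0.08 higher under upper-quartile scaling.

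The nuclear regulators of respiratory genes, 11 in all, split into those that fell and those that rose. Nrf1 fell by 0.32 ± 0.035 with rapamycin, 0.83 ± 0.037 with Torin1 and 0.77 ± 0.037 with RapaLink-1. Gabpb1, a subunit of the ETS factor GABP, fell by 0.29, 0.75 and 0.72, and its DNA-binding partner Gabpa was at 0.00 with rapamycin and fell by 0.31 and 0.23 with Torin1 and RapaLink-1. Yy1 fell by 0.24, 0.43 and 0.34, and the PGC-1-related coactivator Pprc1 fell by 0.52, 0.42 and 0.48. Esrra, which encodes ERRα, was higher with Torin1 (0.69 ± 0.055) and RapaLink-1 (0.66 ± 0.055) and not called with rapamycin (-0.12 ± 0.061). Ppargc1b, which encodes the coactivator PGC-1β, fell by 0.32 ± 0.106 with rapamycin and was 0.94 ± 0.089 and 0.47 ± 0.095 higher with Torin1 and RapaLink-1. Ppargc1a, which encodes PGC-1α, fell by 0.43 ± 0.069 with Torin1 and was not called with rapamycin (0.02 ± 0.065) or RapaLink-1 (-0.13 ± 0.066). Perm1, a regulator induced by PGC-1 and ERR in muscle, was 1.04, 1.42 and 1.63 higher, from low levels of 4.46, 5.79 and 6.68 CPM with rapamycin, Torin1 and RapaLink-1, against 2.17 CPM with DMSO.

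Most messages of the enzymes that feed the chain were lower too. Over all genes tested, 32.2% were called lower with rapamycin, 38.3% with Torin1 and 37.9% with RapaLink-1, and 27.5%, 39.8% and 38.7% higher. All 17 messages of the TCA cycle and pyruvate dehydrogenase were lower with rapamycin, 13 with Torin1 and 14 with RapaLink-1, with 0, 4 and 2 higher. Their median log2 fold changes were -0.33, -0.38 and -0.47. Citrate synthase (Cs) fell by 0.40 ± 0.017, 0.69 ± 0.017 and 0.60 ± 0.017, and Ogdh, the first subunit of the 2-oxoglutarate dehydrogenase, by 0.53 ± 0.021, 1.30 ± 0.023 and 1.22 ± 0.022. Of 22 genes for ubiquinone synthesis and other electron entry, 13, 12 and 16 were lower with rapamycin, Torin1 and RapaLink-1 and 4, 6 and 5 were higher. The medians of these 22 were smaller, at -0.13, -0.20 and -0.29, and Pdss1, which starts the ubiquinone side chain, fell by 0.57, 1.27 and 1.34.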

How the data were processed

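RNA was sequenced from 12 libraries, 3 for each of 4 groups. Per the submitters' processing notes, the tools were Trimmomatic 0.36, STAR 2.5.2b, featureCounts of Subread 1.5.2 and DESeq2, on GRCm38. The deposited values are whole-number counts of reads per gene, not normalized by the authors, and the strand setting is not given in the sources used here. From these counts, edgeR 4.0.16 (R 4.3.3) fitted all 12 libraries by group, with filterByExpr, TMM scaling and the robust quasi-likelihood test, and p-values were adjusted by Benjamini-Hochberg over 15917 genes. A call is an adjusted p under 0.05. CPM are TMM-scaled and SE are of log2 fold changes. The code was tested on simulated data with 200 changed genes. Alternatives used the Wald test of DESeq2 1.42.0 and, within edgeR, other scalings and filters, a replicate block, a gene-length trend and leaving out each library. Shared sequence was measured as 50-base words found in transcripts of other genes. Named with values were the mitochondrially encoded genes, complex II and Cycs, the 3 highest and 3 lowest members of each nuclear complex at a mean of at least 10 CPM, members called in opposite directions, isoform sets, and up to 4 genes of each list with the smallest p plus regulators; not all are printed. Ndufs1, Ndufv3 and genes cited for shared reads were named as well. The members and lists were chosen with earlier results of these data known. Of the members, 67 matched the RefSeq promoter table. Results of 1 member are not reported here.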

Additional observations from a re-analysis of the deposited data

How the results depend on the processing

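Counts of lower nuclear members stayed within 1.5 times under every alternative, except that removal of the gene-length trend left 26 lower and 1 higher for RapaLink-1 against Torin1. Counts of higher nuclear members moved more. Upper-quartile scaling gave 19 for rapamycin, 15 for Torin1 and 11 for RapaLink-1 against DMSO and 17 for RapaLink-1 against rapamycin, and a filter at a mean of 5 CPM gave 19, 13 and, for RapaLink-1 against rapamycin, 10. The gene-length trend gave 5 for rapamycin against DMSO and 9 for RapaLink-1 against rapamycin. Of the mitochondrially encoded members, that trend left 1 lower with rapamycin, upper-quartile scaling and the 5 CPM filter each left 0 lower with Torin1 and 1 lower with RapaLink-1, and a fit of only the 6 libraries compared left 1 lower with RapaLink-1. For RapaLink-1 against rapamycin, upper-quartile scaling gave 3 higher and 3 lower, and the 5 CPM filter 1 higher and 3 lower. With members of shared exons or sequence left out, an alternative chosen after seeing the data, 4 mitochondrially encoded members were higher with Torin1, 3 with RapaLink-1 and 3 with Torin1 against rapamycin, 3 were lower with RapaLink-1 against rapamycin, and 3 nuclear members were higher with RapaLink-1 against rapamycin, because fewer members were counted. Of the set medians under all alternatives, 90 moved by more than the spread between libraries and 102 did not. For nuclear members, upper-quartile scaling gave -0.10 for Torin1 against rapamycin and the gene-length trend -0.05 for RapaLink-1 against Torin1, and for mitochondrially encoded ones upper-quartile scaling gave 0.27 for RapaLink-1 against DMSO.

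Directions of named genes that turned, on the log2 scale, were few. Under upper-quartile scaling these were Atp5g2 at 0.062, 0.12 and 0.064 with rapamycin, Torin1 and RapaLink-1, Lrpprc at 0.062 and 0.081 with Torin1 and RapaLink-1, mt-Nd1 at 0.043 with Torin1, and Cox4i1 at 0.14, Uqcrh at 0.11, mt-Nd2 at 0.053 and Uqcrc2 at 0.0044 with RapaLink-1. Against rapamycin, the same scaling turned Sdha to 0.047 with Torin1 and 0.064 with RapaLink-1, and mt-Co1 to 0.018 and mt-Cytb to 0.040 with RapaLink-1. Under the 5 CPM filter these were Atp5g2 at 0.057, 0.086 and 0.012, Lrpprc at 0.027 and 0.029, mt-Nd1 at 0.0082 with Torin1, and Cox4i1 at 0.084, Uqcrh at 0.058 and mt-Nd2 at 0.0017 with RapaLink-1. Removing the gene-length trend turned Ndufa2 to -0.021 and mt-Nd1 to -0.031 with rapamycin and Uqcr10 to -0.15 with Torin1. Beyond the construction of each alternative, the cause was not tested.

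Leaving out each library in turn gave 42 to 47, 61 to 61 and 66 to 69 lower nuclear members and 6 to 9, 8 to 9 and 6 to 6 higher ones for rapamycin, Torin1 and RapaLink-1 against DMSO. RapaLink-1 against Torin1 gave 34 to 41 lower nuclear members, below the 46 of all libraries. Libraries with the same number did not deviate together (correlations of -0.0391 to 0.0587), and a replicate block changed 2 counts, to 9 higher nuclear members for Torin1 against DMSO and 6 higher mitochondrially encoded members for Torin1 against rapamycin. At these depths the median log2 SE of nuclear members was 0.0269 for rapamycin against DMSO.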
